A study of Mus musculus with 40 samples.

Results

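Copies of the short interspersed elements (SINEs) B1 and B2 were followed across mouse embryonic stem (mES) cells and epiblast-like cells (EpiLCs) that lacked lamins, the lamin B receptor (LBR) or both. The members were the 13 families of class SINE whose name starts with B1 or B2 (10 B1 and 3 B2 families), of 1243 families of transposable elements (TEs), and the 548392 copies with these names among 3799629 TE copies. A copy was inside when it overlapped the span of a gene of the gene table and outside when it lay at least 5 kb from every span. Of the copies, 55.9% lay inside and 27.9% (152948) outside, 88825 lay closer than 5 kb to a gene, and 244 on contigs without genes were left out. B1_Mus1 was the family with the most copies (96512), followed by B2_Mm2 (87324), and B2_Mm1a and B2_Mm1t had 18458 and 25909.

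B1 and B2 are short retrotransposons that encode no protein and depend on LINE-1 proteins to move. B1 derives from the 7SL RNA of the signal recognition particle and B2 from a tRNA, and RNA polymerase III can transcribe both from an internal promoter made of an A box and a B box. Their copies are also carried in transcripts of RNA polymerase II, in introns, in untranslated exons and past gene ends. SINEs are densest in gene-rich chromatin, whereas the chromatin held at the nuclear lamina is typically gene-poor and rich in LINE-1.

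Total RNA of 40 cultures of XY mouse cells was sequenced. Naive mES cells were kept with the GSK3 inhibitor CHIR (3 µM), the MEK inhibitor PD (1 µM) and LIF, and EpiLCs, a culture model of the early post-implantation epiblast, were made in 48 h with Activin (12 ng/mL) and FGF (20 ng/mL). The genotypes were wild type (WT), LBRKO with a disrupted *Lbr*, TKO without *Lmna*, *Lmnb1* and *Lmnb2*, and QKO with *Lbr* disrupted in TKO cells. There were 8 WT libraries and 4 of each mutant at each stage. QKO was 1 clone made from TKO cells, and LBRKO was made from WT cells with the same guide. Replicates were separate wells of a culture plate, so p-values reflect variation among wells of the same lines. The karyotypes of the lines include trisomy 8 and loss of Y among TKO cells, and loss of Y and trisomy 6 and 8 in subpopulations of WT cells.

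Libraries held 22594640 to 48863506 reads on genes and 509060 to 1392062 reads that mapped to 1 place on a B1 or B2 copy, 16% to 21.2% of the uniquely mapped TE reads. WT replicates 1 to 4 (25360443 to 33516247 gene reads) overlapped TKO (22594640 to 33574993) and QKO (24491961 to 33019258) in depth, and WT replicates 5 to 8 (39434595 to 48863506) overlapped LBRKO (39734858 to 48139359). The labels name no batch. Levels are given in CPM (reads relative to the scaled total of gene reads), as mean ± SD. *Lmnb1* had 515 ± 21 CPM in WT mES cells, 8.47 ± 0.261 in TKO and 13.8 ± 1.49 in QKO (n = 8, 4 and 4, as for WT and mutants throughout). *Lmna* went from 57.8 ± 8.32 in WT to 15.9 ± 1.37 in TKO mES cells and *Lmnb2* from 105 ± 7.14 to 4.3 ± 0.352. *Lbr* RNA was lowered less, from 372 ± 20.6 in WT to 209 ± 64.4 in LBRKO and 237 ± 1.49 in QKO mES cells. All 6 naive markers fell and all 4 EpiLC markers rose from WT mES cells to WT EpiLCs, and the naive markers *Esrrb* (log2 fold change 2.32 and 1.5) and *Zfp42* (1.53 and 1.26) were higher in LBRKO and QKO EpiLCs than in WT EpiLCs.

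Some of the copies described below, picked to show the main kinds of difference between groups, are given with their sequence in GRCm39, on the strand of the element. Capitals mark matches to the A box letters (TGGCNCA, searched in the first 40 bases) and the B box letters (GTTCNANNC). B2_Mm1a_dup11567 and B2_Mm1a_dup8717 had reads in TKO and QKO cells, B2_Mm1t_dup7269 in WT and LBRKO cells, B2_Mm1a_dup3276 and B1_Mus2_dup4444 differed between QKO and TKO, and B1F_dup5607 differed between the stages. They lay as follows: B2_Mm1a_dup11567 at chr11:11858371-11858560 (plus strand), B2_Mm1a_dup8717 at chr8:124371728-124371916 (plus strand), B2_Mm1t_dup7269 at chr5:103874757-103874956 (plus strand), B2_Mm1a_dup3276 at chr4:3825335-3825522 (minus strand), B1_Mus2_dup4444 at chr2:17985824-17985970 (minus strand) and B1F_dup5607 at chr2:172467249-172467379 (plus strand).
B2_Mm1a_dup11567: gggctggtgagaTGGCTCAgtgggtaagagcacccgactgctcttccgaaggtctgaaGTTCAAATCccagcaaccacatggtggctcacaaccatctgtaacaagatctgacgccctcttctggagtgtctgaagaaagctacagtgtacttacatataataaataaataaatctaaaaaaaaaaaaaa
B2_Mm1a_dup8717: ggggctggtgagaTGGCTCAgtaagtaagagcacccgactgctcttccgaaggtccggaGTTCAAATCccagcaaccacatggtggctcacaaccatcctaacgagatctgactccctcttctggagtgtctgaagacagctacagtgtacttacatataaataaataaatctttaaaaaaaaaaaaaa
B2_Mm1t_dup7269: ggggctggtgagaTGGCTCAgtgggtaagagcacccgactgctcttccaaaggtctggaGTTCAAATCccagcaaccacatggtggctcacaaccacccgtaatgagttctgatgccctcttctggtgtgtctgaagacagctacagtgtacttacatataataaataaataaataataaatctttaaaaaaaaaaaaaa
B2_Mm1a_dup3276: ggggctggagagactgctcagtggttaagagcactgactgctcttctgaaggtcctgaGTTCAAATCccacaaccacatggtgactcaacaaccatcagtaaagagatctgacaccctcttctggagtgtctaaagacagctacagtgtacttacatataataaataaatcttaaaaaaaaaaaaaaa
B1_Mus2_dup4444: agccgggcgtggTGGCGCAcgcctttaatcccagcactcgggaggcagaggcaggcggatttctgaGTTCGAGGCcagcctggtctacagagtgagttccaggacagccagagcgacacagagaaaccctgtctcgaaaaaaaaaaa
B1F_dup5607: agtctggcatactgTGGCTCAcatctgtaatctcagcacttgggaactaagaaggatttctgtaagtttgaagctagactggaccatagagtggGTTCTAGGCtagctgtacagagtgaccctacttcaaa

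All 4 of the B2 copies shown hold the B box letters and AATAAA, and B2_Mm1a_dup3276 lacks the A box letters. Both B1 copies shown hold the letters of both boxes. Those of the B box start at base 67 in B1_Mus2_dup4444 and at base 95 in B1F_dup5607. Whether the match at base 95 stands where the B box of the element lies was not tested. A match describes the letters and not a bound site.

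Most B1 and B2 reads lay inside genes. In WT mES cells B1 copies had 13539 ± 1838 CPM inside and 249 ± 43.3 outside genes, and B2 copies 4112 ± 581 and 413 ± 124 (n = 8). Per megabase of copies, B1 had 3952 CPM in copies that overlapped an exon, 227 in introns, 98.1 within 5 kb of a gene, 19.2 at 5 to 50 kb and 7.78 at 50 to 200 kb. B2 had 1677, 276, 169, 78.5 and 34.2 CPM per megabase in the same order. B2 was thus below B1 on exons and above it at each distance outside genes.

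**Figure D1:**
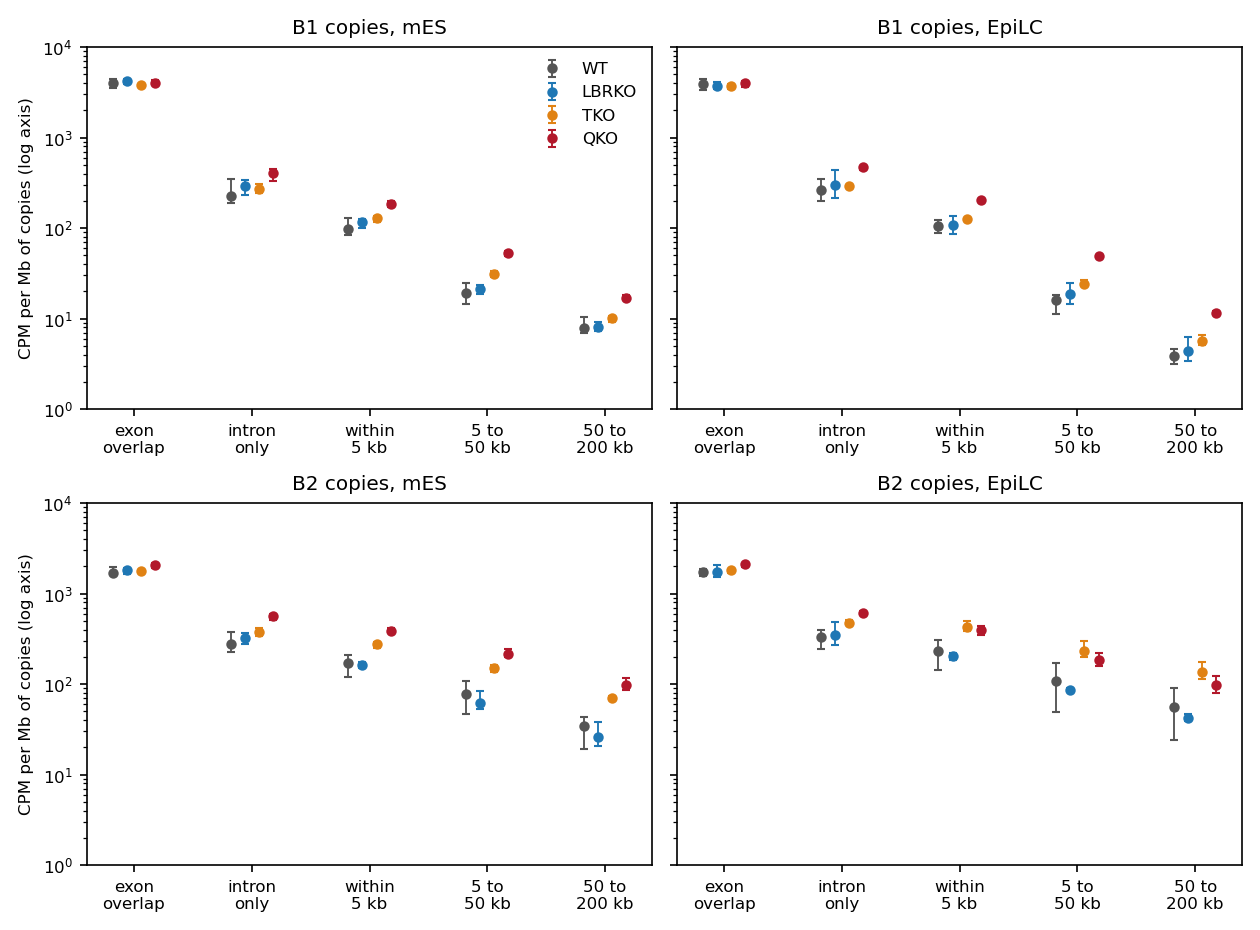
Unique reads per megabase of B1 (top) and B2 (bottom) copies (CPM per Mb, log axis) by position relative to genes, in mES cells (left) and EpiLCs (right). Points are group means and bars run from the lowest to the highest library. In QKO mES cells the mean for B1 is 4017 on exons against 3952 in WT, and 52.7 at 5 to 50 kb against 19.2.

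Outside genes, B1 copies had 189.6 to 321 CPM in the 8 WT mES libraries (median 248), 255, 241, 288 and 299 in LBRKO, 365, 398, 398 and 421 in TKO and 619.7, 709, 694 and 656 in QKO mES cells. In EpiLCs they had 143 to 227 CPM in WT (median 210.5), 181, 195, 309 and 255 in LBRKO, 335, 285, 289 and 285 in TKO and 619, 614, 596 and 595 in QKO. At both stages every QKO library was above every TKO library and every TKO library above every WT library, and LBRKO overlapped WT. In bulk RNA a change in the number of cells that carry a transcript and a change in its amount per cell cannot be told apart.

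B2 copies outside genes had 507, 516, 559, 519.9, 327, 335, 298 and 242 CPM in WT mES replicates 1 to 8, 284, 435, 274 and 299 in LBRKO, 727, 729, 861 and 839 in TKO and 1273, 1031, 1075 and 1149 in QKO mES cells. In EpiLCs they had 909.5, 694, 739, 738, 259.6, 477, 437 and 369 CPM in WT replicates 1 to 8, 482, 454, 442 and 452 in LBRKO, 1615, 1185, 1072 and 1126 in TKO and 1178, 1051, 831 and 892 in QKO. QKO was above TKO in every mES library, whereas in EpiLCs TKO and QKO overlapped (means 1249 ± 248 and 988 ± 157). WT replicates 1 to 4 were above replicates 5 to 8 at both stages, with 526 ± 22.9 against 301 ± 42.4 CPM in mES cells and 770.2 ± 95.2 against 386 ± 95 in EpiLCs, and the WT sets overlapped for B1. The medians of B2 families outside genes in the mutants, and the counts of B2 copies outside genes in TKO and LBRKO, are therefore also given against each set alone.

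**Figure D2:**
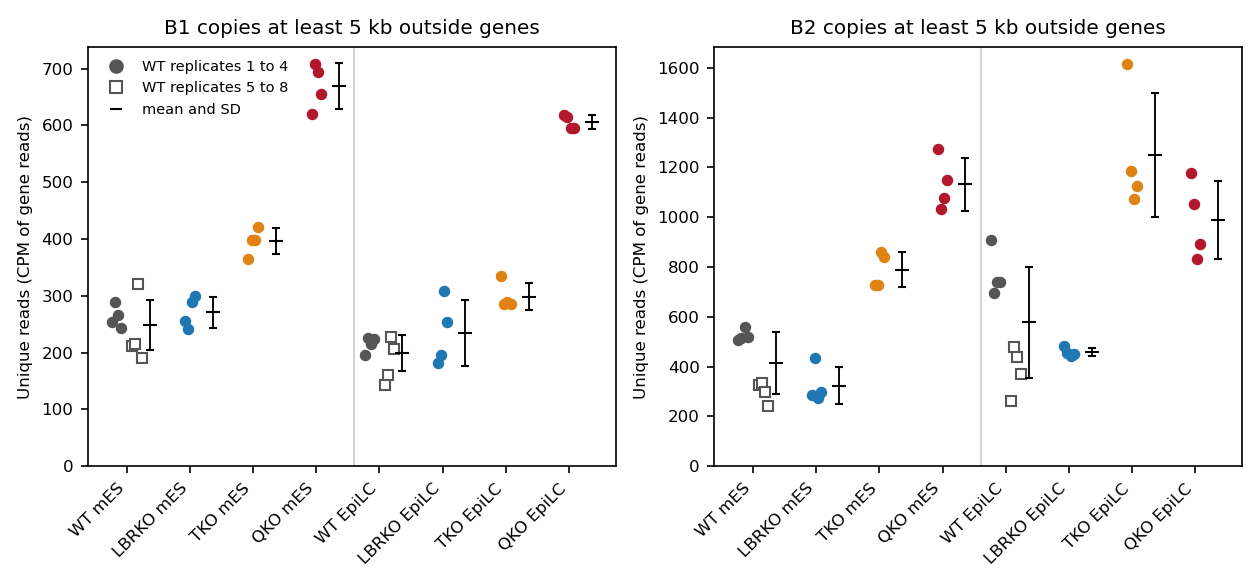
Unique reads (CPM) of B1 copies (left) and B2 copies (right) at least 5 kb outside genes, a point for each library by group, with open squares for WT replicates 5 to 8 and the mean and SD beside each group. QKO is highest for B1 at both stages, and TKO EpiLC replicate 1 is the highest B2 library at 1615 CPM.

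Of 116773 B1 and 36175 B2 copies outside genes, 342 and 1051 passed the filter on low counts for a test of single copies. The copies that did not pass kept the order of the groups. Their B2 sum was 166 ± 46.6 CPM in WT, 309 ± 29.4 in TKO and 460.3 ± 24.1 in QKO mES cells, and 222 ± 79.9, 443 ± 93.6 and 411 ± 61.3 in EpiLCs. Their B1 sum was 176 ± 32.2, 273 ± 17.9 and 458 ± 26.5 CPM in mES cells and 156 ± 26, 206 ± 14.9 and 398 ± 10.7 in EpiLCs. Without the 100 copies of highest mean, B2 outside genes had 419 ± 163 CPM in WT, 899 ± 189 in TKO and 762 ± 122 in QKO EpiLCs. Both of these sums were chosen after the data were seen.

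Families were tested with edgeR's quasi-likelihood test across all families, with Benjamini-Hochberg adjusted p-values, and rose or fell when the adjusted p was under 0.05 and the change over 2-fold. Changes are log2 fold changes ± SE. In QKO mES cells all 13 families rose outside genes, where 80.7% of all 794 TE families tested rose and the median of all was 1.37. B1_Mus2 went from 46.6 ± 8.94 CPM in WT to 148 ± 9.97 (1.67 ± 0.13, adjusted p = 1.22e-15), and the B1 families ran from 1.00 (B1F) to 1.67 (B1_Mus2) with a median of 1.37. B2_Mm1a went from 194 ± 65.8 to 536 ± 70.1 CPM (1.47 ± 0.25, adjusted p = 3.84e-06), and B2_Mm1t and B2_Mm2 rose by 1.51 ± 0.22 and 1.39 ± 0.17. The B1 median was that of TE families in general. The B2 median was 1.11 against WT replicates 1 to 4 and 1.99 against replicates 5 to 8, and 3 of 3 families rose against either. At least 50 kb from genes B1F changed by -0.14 and the other 12 families rose.

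In TKO mES cells 1 member, B2_Mm1t, rose outside genes (1.01 ± 0.22, adjusted p = 0.000778), where 12% of families rose and the median of all was 0.58. B2_Mm1a (0.98 ± 0.25, adjusted p = 0.00415) and B2_Mm2 (0.80 ± 0.17, adjusted p = 0.00031) had changes of less than 2-fold, and so had the 10 B1 families, from 0.39 (B1F) to 0.82 (B1_Mus2), all at an adjusted p under 0.05. At least 50 kb from genes B1F changed by -0.23 and B1_Mur4 by -0.48, below 0. Against WT replicates 1 to 4 the B2 median was 0.59 and 0 of 3 families rose, and against replicates 5 to 8 it was 1.5 and 3 rose.

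In TKO EpiLCs 1.76% of TE families outside genes rose (14 of 794), with a median of 0.04 over all, and 2 of these were members. B2_Mm1a went from 297 ± 123 to 679 ± 135 CPM (1.19 ± 0.25, adjusted p = 0.00172) and B2_Mm1t rose by 1.18 ± 0.22 (adjusted p = 0.00035). B2_Mm2 (0.87 ± 0.17, adjusted p = 0.000246) stayed under 2-fold. Of the B1 families, B1_Mm (0.86), B1_Mus1 (0.86) and B1_Mus2 (0.88) had an adjusted p under 0.05, and the 7 others ran from -0.09 (B1F) to 0.33 (B1F2). Against WT replicates 1 to 4 the B2 median was 0.76, with 0 of 3 past 2-fold and 3 at an adjusted p under 0.05, and against replicates 5 to 8 it was 1.77, with 3 past it. Without TKO EpiLC replicate 1 the change of B2_Mm1a was 1.04 and that of B2_Mm1t 0.99, so that 1 of them rose.

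In QKO EpiLCs the 10 B1 families rose outside genes and the B2 families stayed under 2-fold. B1 ran from 1.12 (B1F) to 1.85 (B1_Mus2), where 63.7% of families rose and the median of all was 1.15. B1_Mus2 went from 38.4 ± 6.89 to 138 ± 5.59 CPM (1.85 ± 0.13, adjusted p = 4.61e-17). B2_Mm1a had 0.65 ± 0.25 (adjusted p = 0.0206), B2_Mm1t 0.87 ± 0.22 (adjusted p = 0.000813) and B2_Mm2 0.92 ± 0.17 (adjusted p = 4.98e-06). The B2 median was 0.45 against WT replicates 1 to 4 and 1.43 against replicates 5 to 8, where 3 of 3 rose, and the B1 median was 1.36 and 1.5.

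In LBRKO cells 0 of the 13 families passed outside genes by edgeR or DESeq2 at either stage, and 1 and 5 had an unadjusted p under 0.05. Of all families outside genes 0% rose and 0.756% fell in mES cells, and 1.01% rose and 0.378% fell in EpiLCs. The B1 medians were 0.19 and 0.30 and the B2 medians -0.37 and -0.30. The B2 direction turned with the WT set. Against WT replicates 1 to 4 the B2 medians were -0.73 and -0.72, with an adjusted p under 0.05 for all 3 families at both stages, and against replicates 5 to 8, whose depth LBRKO shares, they were 0.12 and 0.26, with none. The part of depth in this was not tested.

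**Figure D3:**
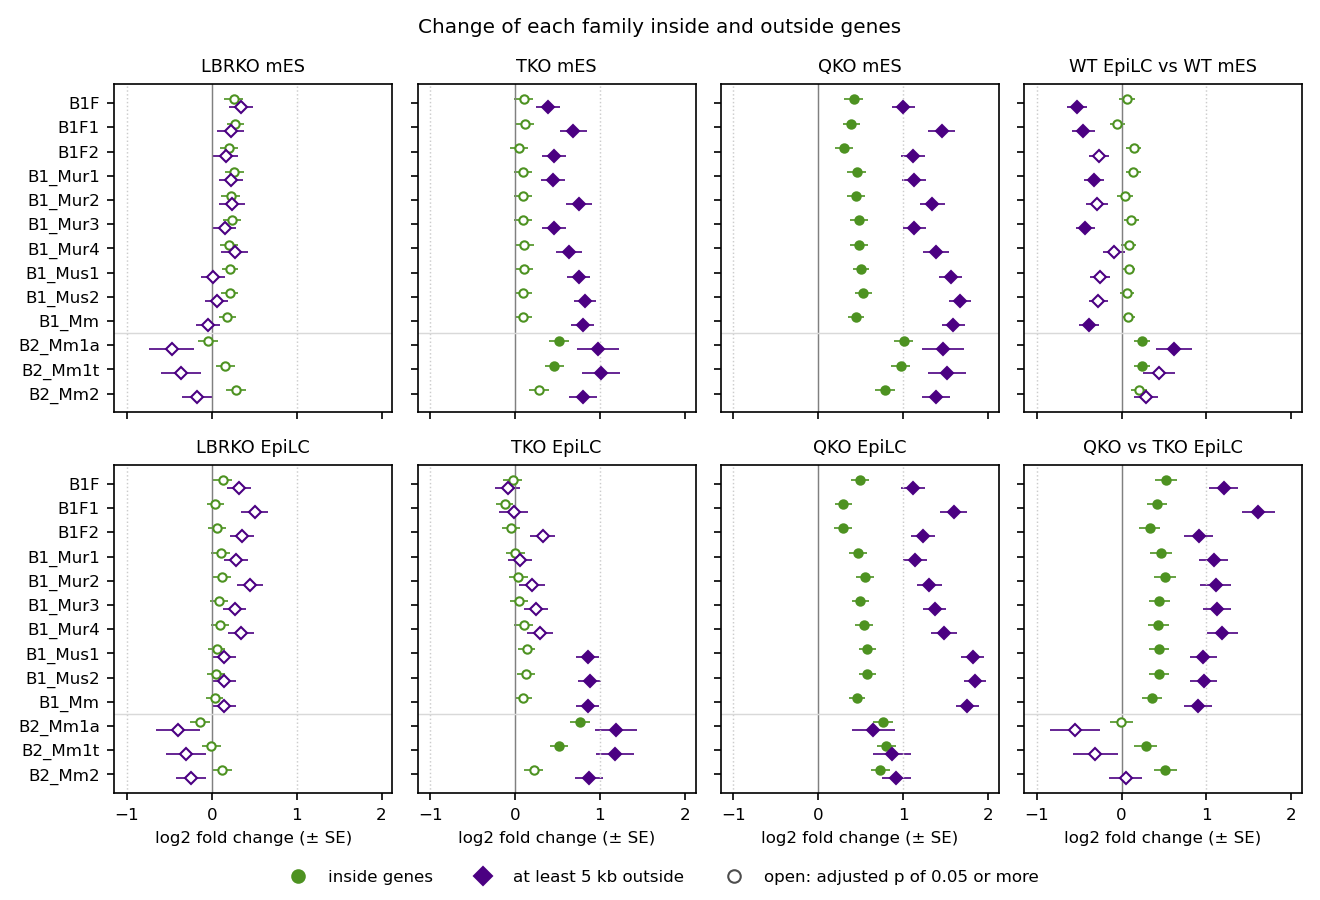
Log2 fold change ± SE of the 13 families in 8 comparisons, inside genes (circles) and at least 5 kb outside (diamonds), with open symbols for an adjusted p of 0.05 or more and dotted lines at 2-fold. In QKO mES cells all 13 diamonds lie beyond 2-fold, and in TKO EpiLCs those of B2_Mm1a and B2_Mm1t do.

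In the table of multimapped reads a read is shared among the copies it matches, and place is not known. In QKO mES cells its B1 median was 0.75, against 0.45 inside and 1.37 outside genes. The B2 median there was 1.09, against 0.97 and 1.47. In QKO EpiLCs the B2 median was 0.9 on multimapped reads and 0.87 outside genes. B2_Mm1a had 707 to 1323 CPM in WT mES cells, 1619.6, 1565, 1865 and 1811 in TKO and 2669, 2113, 2209 and 2411 in QKO, without overlap between the 3. It rose in QKO mES cells (1.18 ± 0.19, adjusted p = 4.33e-06) with B2_Mm1t (1.09 ± 0.14, adjusted p = 2.2e-08), 2 of 13 members, where 25.1% of 1142 families rose, and 0 passed 2-fold against WT replicates 1 to 4 alone. In EpiLCs B2_Mm1a had 693 to 2159.9 CPM in WT, 4130.4, 2630.0, 2423 and 2549 in TKO and 2946, 2593, 1973 and 2219 in QKO. It was the member that rose in TKO EpiLCs (1.05 ± 0.19, adjusted p = 0.000178), where 0.701% of families did, and it did not pass against WT replicates 1 to 4 alone. B1_Mm was the member that rose in QKO EpiLCs (1.02 ± 0.12, adjusted p = 1.46e-09), where 26% of families did, with 520.2 to 809 CPM in WT and 1272, 1381, 1322 and 1299 in QKO. In LBRKO mES cells and EpiLCs 0 passed by edgeR or DESeq2 (9 and 0 of 13 at an unadjusted p under 0.05), where 0.525% and 0.876% of families rose and 0.0876% and 0.263% fell. In TKO mES cells 0 passed by either tool (6 at an unadjusted p under 0.05), where 2.1% of families rose and 0.0876% fell, and between QKO and TKO mES cells 0 did (12 at an unadjusted p under 0.05), where 4.47% rose.

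Inside genes B1 families changed by 0.30 to 0.53 in QKO mES cells, and B2_Mm1a (1.01 ± 0.11, adjusted p = 1.11e-10) was the member that rose, where 14.1% of families did, and 0 passed 2-fold against WT replicates 1 to 4 alone. In the other 8 comparisons 0 of 13 passed inside genes by edgeR or DESeq2, with 0 to 13 at an unadjusted p under 0.05. In LBRKO 0.176% of families inside genes rose and 0.0882% fell in mES cells, and 0.441% rose and 0.176% fell in EpiLCs, and between QKO and TKO mES cells 4.32% rose and 0.0882% fell. Of all families inside genes 1.06% rose and 0.265% fell in TKO mES cells, 0.265% and 0.265% in TKO EpiLCs, 13.3% and 0.353% in QKO EpiLCs, 14.9% and 0.0882% between QKO and TKO EpiLCs, and 3.88% and 1.5% between the WT stages. Exon-overlapping B1 copies had 3952 ± 318 CPM per megabase in WT and 4017 ± 243 in QKO mES cells, which lay within the spread, whereas intronic copies had 227 ± 50.8 and 409 ± 56.1 for B1 and 276 ± 46.3 and 564 ± 37 for B2. In EpiLCs intronic copies had 260.2 ± 46.3 in WT and 471 ± 24.7 in QKO for B1 and 334 ± 53.3 and 609.5 ± 23.4 for B2. The difference between the changes outside and inside was tested in 1 model, with calls by adjusted p alone. In QKO mES cells it was positive for all 13 families, 0.59 to 1.16 for B1 and 0.52 to 0.63 for B2 (background 64.5%), and in TKO mES cells for all 13 as well (background 39.1% higher and 1.78% lower). Against WT replicates 1 to 4 alone it passed for 10 of 13 in QKO and 8 in TKO mES cells, with 0.21 (adjusted p = 0.167) for B2_Mm1a in QKO. With copies at least 50 kb from genes B1F turned to -0.55 in QKO mES cells, and in TKO mES cells 4 of 13 passed, with B1F at -0.33, B1F2 at -0.04 and B1_Mur4 at -0.58. Without inside copies that overlap an exon 10 passed in QKO and 8 in TKO mES cells. In QKO EpiLCs it was for the 10 B1 families (background 50.2%), while B2_Mm1a had -0.04 ± 0.17, B2_Mm1t 0.15 ± 0.23 and B2_Mm2 0.26 ± 0.22. In TKO EpiLCs (background 5.84% higher and 2.41% lower) it was 0.73 ± 0.23 (adjusted p = 0.0393) for B2_Mm1t, 0.72 ± 0.22 (adjusted p = 0.0345) for B2_Mm2, 0.50 ± 0.17 (adjusted p = 0.0634) for B2_Mm1a and 0.75 ± 0.13 (adjusted p = 1.54e-05) for B1_Mus2, and 3 of 13 passed against WT replicates 1 to 4 alone. In LBRKO EpiLCs 1 of the 13, B1F1, passed (0.47 ± 0.10, adjusted p = 0.00322, background 3.94% higher and 1.4% lower), against 3 with WT replicates 1 to 4, 8 with WT replicates 5 to 8 and 0 with copies at least 50 kb from genes.

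Copies in both orientations to their host gene were higher in QKO. B1 copies antisense to the gene had 245 ± 56.5 CPM per megabase in WT and 440.0 ± 65.4 in QKO mES cells, and sense copies 205 ± 44.8 and 371 ± 45. B2 copies had 284 ± 49.9 and 579 ± 39.4 antisense and 266 ± 42.2 and 549 ± 34.5 sense. Without the strand setting of the counting, which the sources used here do not give, reads of a copy and of a transcript on the other strand cannot be told apart.

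QKO was compared with TKO to follow the loss of LBR in cells without lamins. In EpiLCs 6 B1 families rose outside genes and all 10 had an adjusted p under 0.05, from 0.90 (B1_Mm) to 1.61 (B1F1), where 61.3% of families rose. B2_Mm1a had -0.54 ± 0.30 (adjusted p = 0.0969), B2_Mm1t -0.31 ± 0.27 (adjusted p = 0.285) and B2_Mm2 0.05 ± 0.20 (adjusted p = 0.828). For B2_Mm1a the change outside was lower than inside (-0.55 ± 0.20, adjusted p = 0.0249, background 1.14%). In mES cells the B1 families ran from 0.59 to 0.85, all at an adjusted p under 0.05 and under 2-fold, and the B2 families from 0.49 to 0.59, where 23.6% of families rose. Whether the change in QKO exceeded the sum of those in LBRKO and TKO was tested as an interaction term. On multimapped reads 0 of 13 families passed by edgeR in EpiLCs or in mES cells (background 20.9% and 7.53% higher), and 10 and 2 had an unadjusted p under 0.05. The terms of the 10 B1 families in EpiLCs were 0.41 to 0.53 there, at adjusted p of 0.0566 to 0.138. On unique reads outside genes, a test added after the data were seen, the term passed for 9 of 10 B1 families in EpiLCs (0.66 to 1.11, background 39.9%) and for B1_Mm, B1_Mus1 and B1_Mus2 in mES cells (0.84, 0.79 and 0.79, background 12.6%). For B2 in EpiLCs these terms were -0.15, -0.01 and 0.29. The interaction of stage with LBRKO, TKO and QKO passed for 0 of 13 families by edgeR on multimapped reads (0, 0 and 0 at an unadjusted p under 0.05) and for 0 outside genes (0, 3 and 1). Of all families 2.19%, 0.263% and 2.36% were higher and 0.613%, 2.54% and 2.89% lower on multimapped reads, and 1.13%, 0% and 2.02% were higher and 0.504%, 8.31% and 4.16% lower outside genes.

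Among single copies outside genes, 225 of 1051 tested B2 copies and 59 of 342 B1 copies rose in TKO mES cells, where 24.5% of all tested TE copies outside did. In TKO EpiLCs 388 B2 copies (36.9%) and 53 B1 copies (15.5%) rose, where 12.7% of all TE copies and 8.65% of those other than B1 and B2 did. In QKO 627 B2 and 208 B1 copies rose in mES cells (background 59.2%) and 399 and 214 in EpiLCs (background 50.3%). A copy can pass the filter through the group where it is high, so these counts describe the tested copies alone. Against WT replicates 1 to 4 alone 58 of 936 B2 copies rose in TKO mES cells (background 20.2%) and 91 in TKO EpiLCs (6.5%), and against replicates 5 to 8 alone 366 of 1121 (22.2%) and 592 (13.8%) rose. In LBRKO 10 B2 copies fell in mES cells (background 2.72%) and 29 in EpiLCs (1.75%). These became 136 and 139 of 936 against WT replicates 1 to 4 and 0 and 1 of 1121 against replicates 5 to 8. The share of all TE copies that fell against each set is not given here, so these counts are not read as particular to B2. Without TKO EpiLC replicate 1, 263 B2 copies rose in TKO EpiLCs. That library had the highest B2 CPM outside genes and the fewest gene reads of all libraries. Of the B2 copies that rose in TKO mES cells 51.6% also rose in TKO EpiLCs (116 copies), and in QKO it was 47.8% of B2 (300 copies) and 73.1% of B1 (152 copies). Of those that rose in EpiLCs these were 29.9%, 75.2% and 71%. Over all tested copies outside genes 36.9%, 38% and 62.6% rose in EpiLCs in the same order, and 21.4%, 59.7% and 60.8% in mES cells.

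**Figure D4:**
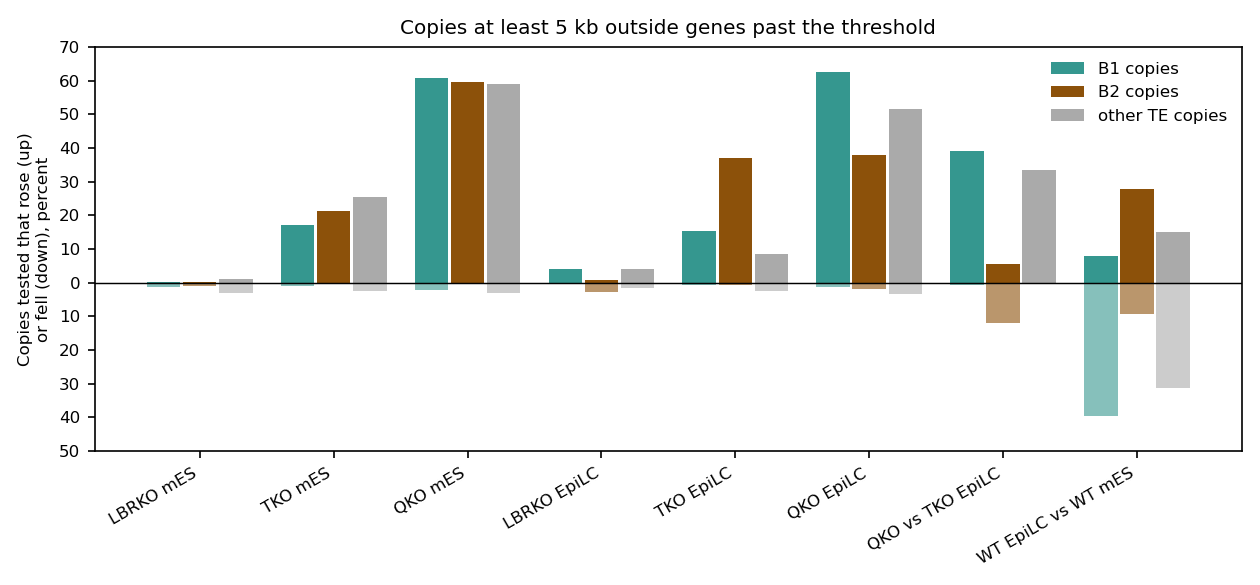
Percent of tested copies at least 5 kb outside genes that rose (up) or fell (down, paler) in each comparison, for B1, B2 and other TE copies. In TKO EpiLCs 36.9% of B2 copies rose against 8.65% of other TE copies.

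Between QKO and TKO EpiLCs 59 tested B2 copies outside genes were higher in QKO and 126 lower. Of B1 copies 134 were higher and 2 lower. Of all TE copies 30.1% were higher and 1.89% lower, against 33.6% and 0.311% of those other than B1 and B2. The 126 lower B2 copies lay in 126 loci (parted by over 50 kb) on 20 chromosomes, and without TKO EpiLC replicate 1 there were 74. Of the 126 copies 0.794% had another kind of TE within 5 kb that also fell, and 79.7% of the higher B2 copies had one that also rose. Only 20 of 6428 other TE copies tested outside genes fell, while 2161 rose, so these shares cannot be set against each other. Of the 388 B2 copies that rose in TKO EpiLCs, in 364 loci, 14 (3.61%) had a neighbour that also rose, against 12.9% in TKO mES cells, 20.7% in QKO mES cells and 31.3% in QKO EpiLCs. For B1 it was 30.2% in TKO EpiLCs and 67.8% and 69.6% in QKO mES cells and EpiLCs. The shares depend on how many other TE copies rose, 8.65% in TKO and 51.7% in QKO EpiLCs. In TKO and QKO mES cells 25.4% and 59% did. Of the tested copies outside genes, 261 of 1051 B2 and 259 of 342 B1 copies had any tested TE of another kind within 5 kb. Chromosomes 6, 8, X and Y held 14.2% of the 388 copies and 15.7% of the tested copies.

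The read density on 20642 of the 36175 B2 copies outside genes was set against that on other TEs within 1 kb of them. For B1, 97577 of 116773 copies were used. The ratio was 5.62, 5.3, 6.22, 6.41, 3.73, 3.7, 2.3 and 2.93 in WT mES replicates 1 to 8, 2.8, 4.92, 2.46 and 2.58 in LBRKO, 5.52, 5.15, 5.96 and 5.44 in TKO and 5.83, 4.32, 4.24 and 4.75 in QKO mES cells. In EpiLCs it was 14.9, 9.19, 11, 9.91, 4.1, 7.41, 5.01 and 4.73 in WT replicates 1 to 8, 7.73, 6.52, 3.63 and 4.74 in LBRKO, 23.3, 14.1, 13.3 and 13.3 in TKO and 7.06, 6.38, 5.13 and 5.16 in QKO. WT EpiLC replicate 1 was the WT library within the range of TKO EpiLCs, and the QKO EpiLC libraries lay below WT replicates 1 to 4 and overlapped replicates 5 to 8. For B1 it ran from 0.95 to 2.18 over all 40 libraries. The other TEs near B2 copies had 8.05 to 11.6 CPM per megabase in WT EpiLCs, 9.16 to 11.2 in TKO EpiLCs and 20.9 to 22.6 in QKO EpiLCs.

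**Figure D5:**
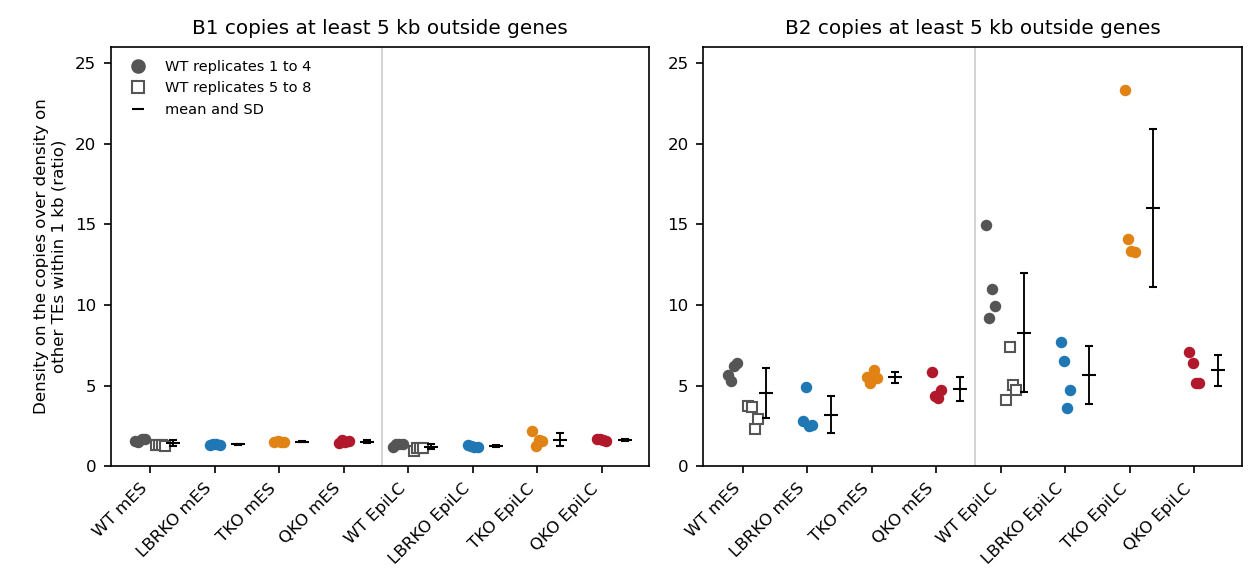
Ratio of read density on B1 (left, 97577 copies) or B2 (right, 20642 copies) copies outside genes to that on other TEs within 1 kb, a point for each library, with open squares for WT replicates 5 to 8 and the mean and SD beside each group. B1 stays between 0.95 and 2.18, and B2 reaches 23.3 in TKO EpiLC replicate 1.

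From WT mES cells to WT EpiLCs the B1 families outside genes changed by -0.52 to -0.09, 5 of them at an adjusted p under 0.05, and B2_Mm1a by 0.62 ± 0.21 (adjusted p = 0.0229), where 3.15% of families rose and 13.2% fell. Of the 13 families 0 passed 2-fold by edgeR or DESeq2, and 12 had an unadjusted p under 0.05. Of the tested copies outside genes 291 B2 copies rose and 99 fell, and 27 B1 copies rose and 135 fell (background 16.3% higher and 28.7% lower). The change outside was lower than inside for 9 B1 families (background 42.8%) and higher for B2_Mm1a (0.35 ± 0.14, adjusted p = 0.0332, background 9.15%). Inside genes, the host gene was read for 13434 of 18100 tested B1 copies and 7706 of 9368 tested B2 copies. The shares that follow cover these copies alone. The host gene changed in the same direction for 41.7% of B1 and 31.9% of B2 copies that rose and for 64.9% and 60.6% of those that fell. Over all of these copies, changed or not, the host gene rose for 6.33% of B1 and 7.51% of B2 and fell for 7.32% and 8.86%. Of copies that rose in QKO mES cells it did for 4.06% of B1 and 5.13% of B2 (1.41% and 2.69% over all of these copies), and in TKO EpiLCs for 6.71% and 1.36% (0.29% and 0.298% over all).

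B2_Mm1a_dup11567, 5060 bases from the small Cajal body RNA gene *Gm25058*, had 0 reads in the 8 WT EpiLC libraries and 29, 42, 41 and 42 reads in TKO EpiLCs (1.27 to 1.57 CPM), at least 139-fold higher against a floor of 3 counts over the WT group. It had 0.90 to 2.06 CPM in QKO EpiLCs, 0.438 to 0.854 in TKO and 0.721 to 1.46 in QKO mES cells, 0 reads in LBRKO and 3 reads over all WT mES libraries. B2_Mm1a_dup8717 had 0 reads in every WT and LBRKO library, 0.568 to 1.22 CPM in TKO EpiLCs (at least 95.5-fold higher), 0.884 to 1.33 in QKO EpiLCs, 0.363 to 0.707 in TKO and 0.511 to 1.72 in QKO mES cells. TKO and QKO share their line of origin, so line and lamin genotype cannot be told apart at a single copy.

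B2_Mm1t_dup7269, a sense copy in *Aff1*, a gene of transcription elongation, was the reverse. It had 142 to 234 reads in WT EpiLCs (3.33 to 7.65 CPM), 2.11 to 3.56 CPM in LBRKO EpiLCs and 0 reads in all TKO and QKO EpiLC libraries, at least 183-fold lower in TKO and 208-fold lower in QKO. In mES cells it had 0.431 to 0.977 CPM in WT, 0.225 to 0.639 in LBRKO and at most 3 reads in a TKO or QKO library. *Aff1* changed by -0.25 ± 0.09 in TKO (adjusted p = 0.0678) and -0.10 ± 0.09 in QKO EpiLCs (adjusted p = 0.391). B1_Mus2_dup66125, a sense copy in the kinesin gene *Kif5b*, likewise had 5.66 to 7.28 CPM in WT EpiLCs and 0 reads in TKO and QKO EpiLCs.

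By the naming rule, 3 B1 copies of the Y chromosome stood among the copies of largest change in TKO and QKO. B1_Mus1_dup58013, 34003 bases from the long noncoding RNA gene *G530011O06Riky*, had 0 reads in all WT libraries, 1.00 to 1.29 CPM in TKO and 1.79 to 5.93 in QKO mES cells, and 1.06 to 2.06 and 5.98 to 7.96 in EpiLCs. B1_Mus1_dup58014 and B1_Mus2_dup40759 in the same region had 0 reads in WT mES cells and rose in both mutants there. Loss of Y, named for subpopulations of both lines, was not tested for its part in these values.

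B2_Mm1a_dup3276, 5811 bases from the ribosomal protein gene *Rps20*, had 0 or 1 reads in each TKO EpiLC library, 0.72 to 0.927 CPM in QKO EpiLCs (4.74 ± 0.70, adjusted p = 1.88e-07) and 0.0342 to 0.352 in WT EpiLCs. In mES cells it had 0.0726 to 0.873 CPM in WT, 0.562 to 1.21 in TKO and 1.01 to 1.42 in QKO. B2_Mm1a_dup13431, 13756 bases from *Wdr89*, had 0.159, 0.23, 0.46 and 0.511 CPM in LBRKO EpiLCs and 0.629 to 1.39 in WT (-1.41 ± 0.31, adjusted p = 0.00252), without overlap. In mES cells B2_Mm1a_dup1685, 5378 bases from *Mtch2*, had 0.46 to 1.2 CPM in QKO and 0.0295 to 0.286 in TKO (2.51 ± 0.48, adjusted p = 0.000181), and B1_Mus2_dup4444, 15257 bases from *H2al2a*, had 0.345 to 0.589 and 0 to 0.0991 (2.87 ± 0.60, adjusted p = 0.000768).

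A pair of B1F copies changed with a nearby gene from mES cells to EpiLCs. B1F_dup5607, 66706 bases from *Tfap2c*, which encodes a transcription factor, had 2.76 to 5.63 CPM in WT mES cells and 0 reads in WT, TKO and QKO EpiLCs (at least 409.7-fold lower in WT), and 1 to 4 reads in each LBRKO EpiLC library. *Tfap2c* changed by -5.51 ± 0.13 in WT. B1F_dup29896, 12670 bases from the carbonic anhydrase gene *Car4*, had 0 reads in WT mES cells and 0.27 to 0.911 CPM in WT EpiLCs (at least 62.2-fold higher), and *Car4* rose as well (adjusted p = 1.18e-36).

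Inside genes, several named copies moved with their host gene. B1_Mur2_dup10648, on an exon of the long noncoding RNA gene *Crxos* and antisense to it, had 5.48 to 7.82 CPM in WT mES cells and 0 reads in WT EpiLCs (at least 631-fold lower), and *Crxos* changed by -9.23 ± 0.11. B1_Mus2_dup39633 on an exon of *Tex13b* had 0.409 to 0.863 CPM in LBRKO and 0.0323 to 0.175 in WT EpiLCs (2.62 ± 0.42, adjusted p = 5.26e-06), and *Tex13b* changed by 2.67 ± 0.20. B1_Mus2_dup45392 lay on an exon of the olfactory receptor pseudogene *Or2y7* and antisense to it. It had 0 to 0.188 CPM in LBRKO and 0.404 to 0.792 in WT EpiLCs, and *Or2y7* changed by -2.18 ± 0.23. B2_Mm1t_dup13895, an intronic sense copy in *Klhl13*, had 0 to 0.149 CPM in LBRKO and 0.435 to 0.833 in WT mES cells, and *Klhl13* changed by -2.03 ± 0.09. Between QKO and TKO EpiLCs, B1_Mur2_dup22448 in *Lncenc1*, a long noncoding RNA gene of naive cells, had 0.524 to 0.828 CPM in QKO and 0 reads in TKO (at least 23-fold higher), with *Lncenc1* at 1.68 ± 0.07, and B1_Mur1_dup37096 in the zinc finger gene *Zfp229* had 0.352 to 0.953 and 0 to 0.0303, with *Zfp229* at 2.7 ± 0.10.

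Other copies differed where the change of the host gene did not pass. B2_Mm1a_dup4159, antisense in *Phactr4*, had 0.161 to 0.98 CPM in LBRKO and 0.0327 to 0.156 in WT mES cells (2.75 ± 0.44, adjusted p = 5.87e-06), and *Phactr4* changed by 0.08 ± 0.07 (adjusted p = 0.443). B2_Mm1a_dup8656, antisense in *Klhl36*, had 0.943 to 1.19 CPM in QKO and 0.0295 to 0.231 in TKO mES cells (3.04 ± 0.48, adjusted p = 2.3e-06), and *Klhl36* changed by -0.24 ± 0.19 (adjusted p = 0.423). The libraries of the groups compared did not overlap for any of these copies, as the naming rule asks. The rule named 13 more copies, 5 higher and 8 lower, counted by comparison.

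The B box and A box letters were searched in the copies themselves. Of all B2 copies outside genes 65.2% held the B box and 58.9% the A box letters on their own strand, against 93.6% and 88.8% of the tested copies and 6.67% and 5.87% of other TEs of 100 to 200 bases outside genes. Of the B2 copies that rose in TKO EpiLCs 97.2% and 92% did. By family, the B box was in 84.6% of B2_Mm1a, 78.5% of B2_Mm1t and 61.3% of B2_Mm2 copies, inside genes or not. AATAAA, the letters of a polyadenylation signal, stood in 88.2% of the tested and 68.4% of all B2 copies outside genes. Of B1 copies outside genes 40.3% held the B box and 29.5% the A box, and of the tested ones 48.8% and 41.8%.

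L2 and MIR, ancient repeats no longer able to move, were read as a comparison outside genes. They had 94.4 ± 20.8 CPM in WT, 129 ± 8.45 in TKO and 215 ± 18.8 in QKO mES cells, and 78.1 ± 13.8, 72.8 ± 9.48 and 168 ± 5.78 in EpiLCs. The TKO EpiLC libraries had 58.7 to 79.4 CPM of L2 and MIR against 62.8 to 100.3 in WT EpiLCs and overlapped them, whereas all of them lay above WT for B1 and B2. They also lay above WT for the sum of all other TEs outside genes, with 6347 to 6695 CPM against 4425 to 5947.

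Genes that transcribe, silence or bind SINE RNA were read from lists. Of 11 subunit genes of RNA polymerase III and 10 genes of TFIIIB, TFIIIC and their repressor MAF1, the changes ran from -1.78 to 0.42 and -0.56 to 0.37 over the 6 comparisons of a mutant with WT, and *Polr3gl*, a subunit gene that fell in QKO mES cells (4.4 ± 0.663 to 1.27 ± 0.474 CPM, -1.78 ± 0.20, adjusted p = 2.94e-10), was the one past the threshold, where 6.65% of genes fell. Of 18 tested silencing genes *Dnmt3l*, a cofactor of DNA methyltransferases, rose in LBRKO (2.88), TKO (1.32) and QKO mES cells (2.28) and in LBRKO (2.12) and QKO EpiLCs (2.07), where 3.01%, 2.65%, 10.6%, 3.01% and 13% of genes rose in the same order, and the others did not pass. Of 14 tested genes that bind or process RNA, *Ifih1*, a sensor of double-stranded RNA with 0.668 ± 0.185 CPM in WT mES cells, fell in LBRKO (-1.55), TKO (-2.70) and QKO mES cells (-4.10) and in QKO EpiLCs (-1.60), where 3.16%, 3.76%, 6.65% and 8.16% of genes fell. *Rigi*, a related sensor, rose in QKO EpiLCs (8.94 ± 1.24 to 19.7 ± 2.19 CPM, 1.14 ± 0.22, adjusted p = 4.96e-05), where 13% of genes rose.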

How the data were processed

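Total RNA of 40 cultures was sequenced as stranded, paired-end libraries after removal of ribosomal RNA. The authors trimmed reads with cutadapt (2.5), aligned them to GRCm39 with STAR (2.7.10a) and deposited raw read counts. Reads with 1 alignment were counted for genes and for single TE copies with featureCounts (1.6.4), and multimapped reads were shared among TE families with TEcount. The strand setting is not given in the sources used here, and 0 columns of samples were set aside. Groups were taken from the labels.

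Counts were tested in R (4.3.3) with edgeR (4.0.16) quasi-likelihood fits over all 40 libraries with 1 mean per group, TMM scaling on genes for unique reads, a minimum count of 10 by group size and Benjamini-Hochberg adjustment. Features tested were 26508 genes and families of multimapped reads, 1928 families by place and 131824 copies, of which 31785 were members. A feature rose or fell at an adjusted p under 0.05 and over 2-fold, and place differences and interactions were called by adjusted p alone. Gene names came from GENCODE (56017 of 56748 IDs). A gap of over 50 kb parted loci. Named copies were, for each comparison, the 3 outside and 2 inside genes of highest absolute change among those past the threshold, without overlap between the libraries and with at least 0.5 CPM in the higher group. The 13 families, the targeted genes and list members past the threshold in a mutant were named as well. Members and lists were chosen with earlier results of these data known.

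Alternatives were RLE scaling, DESeq2 (1.42.0), other count minimums, each WT set alone, the replicate block, a distance of 50 kb, inside copies without exon overlap and leaving out each replicate. The statistics were tested on simulated data, with known changes in QKO mES cells. For single copies a 4-fold rise was recovered in 97% and a 4-fold fall in 57%, so falls of copies are found less often. For families both were recovered in 100%, with a fixed spread and no difference between the WT sets. The recovery of changes near 2-fold was not tested. Intervals and floors of counts cover counting error alone.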

Additional observations from a re-analysis of the deposited data

Results flagged for a closer look

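In 6 of 48 groups of libraries, 1 library stood apart from the rest of its group by Dixon's gap test, where chance flags about 1 in 20. WT mES replicate 7 was apart for B1 copies inside genes, at 17714 CPM, and QKO EpiLC replicate 1 for the same sum, at 18709 CPM. TKO EpiLC replicate 1 was apart for B1 copies outside genes, at 335 CPM, and for the ratio of B2 copies to other TEs within 1 kb, at 23.3. LBRKO mES replicate 2 was apart for B2 copies outside genes, at 435 CPM, and for the same ratio, at 4.92.

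The change of 9 B1 families outside genes in QKO EpiLCs differed from the sum of their changes in LBRKO and TKO, by edgeR's interaction term on unique reads. The terms, on the log2 scale and with the adjusted p in parentheses, were B1F 0.88 (0.00403), B1F1 1.11 (0.00174), B1_Mm 0.76 (0.00936), B1_Mur1 0.80 (0.00753), B1_Mur2 0.66 (0.0388), B1_Mur3 0.86 (0.00402), B1_Mur4 0.84 (0.00973), B1_Mus1 0.82 (0.00501) and B1_Mus2 0.82 (0.00473). In mES cells they were B1_Mm 0.84 (0.0085), B1_Mus1 0.79 (0.0135) and B1_Mus2 0.79 (0.0114). Each term is above 0, so the change in QKO was the larger, whereas on multimapped reads none passed without the replicate block.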

How the results depend on the processing

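Counts of families and copies past the threshold were recomputed under each alternative, and 482 of the recomputed counts were within 1.5 times the count reported and 98 were not. The latter follow, with the reported count in parentheses, and the cause was not tested. By DESeq2 copies inside genes were 428 in QKO against TKO mES cells (846), and copies outside genes were 31 in LBRKO mES cells (17) and 46 in QKO against TKO mES cells (90). Against WT replicates 1 to 4 alone copies inside genes were 599 in LBRKO EpiLCs (300), 1074 in LBRKO mES cells (239), 314 in TKO EpiLCs (1116), 416 in TKO mES cells (920) and 2782 in WT EpiLCs against WT mES cells (4779), and copies outside genes were 158 in LBRKO EpiLCs (51), 158 in LBRKO mES cells (17), 553 in QKO mES cells (847), 118 in TKO EpiLCs (449) and 92 in TKO mES cells (290). For families this setting changed counts so that families inside genes were 0 in QKO mES cells (1), families outside genes were 0 in TKO EpiLCs (2) and 0 in TKO mES cells (1), families on multimapped reads were 0 in QKO mES cells (2) and 0 in TKO EpiLCs (1) and families whose change outside differed from that inside were 3 in LBRKO EpiLCs (1), 7 in LBRKO mES cells (0), 3 in TKO EpiLCs (6) and 8 in TKO mES cells (13). Against WT replicates 5 to 8 alone copies inside genes were 96 in LBRKO EpiLCs (300), 61 in LBRKO mES cells (239) and 2990 in WT EpiLCs against WT mES cells (4779), and copies outside genes were 11 in LBRKO EpiLCs (51), 3 in LBRKO mES cells (17), 441 in TKO mES cells (290) and 328 in WT EpiLCs against WT mES cells (552). For families this setting changed counts so that families inside genes were 1 in QKO EpiLCs (0), 2 in QKO mES cells (1) and 1 in TKO EpiLCs (0), families outside genes were 6 in TKO EpiLCs (2) and 4 in TKO mES cells (1), families on multimapped reads were 5 in QKO EpiLCs (1), 2 in TKO EpiLCs (1) and 1 in TKO mES cells (0) and families whose change outside differed from that inside were 8 in LBRKO EpiLCs (1). At 50 kb and more outside genes families outside genes were 6 in QKO against TKO mES cells (0), 2 in TKO mES cells (1) and 1 in WT EpiLCs against WT mES cells (0) and families whose change outside differed from that inside were 0 in LBRKO EpiLCs (1), 1 in LBRKO mES cells (0), 6 in QKO against TKO EpiLCs (11) and 4 in TKO mES cells (13). Without copies that overlap an exon families inside genes were 2 in QKO mES cells (1) and families whose change outside differed from that inside were 7 in QKO against TKO EpiLCs (11), 0 in QKO against TKO mES cells (8) and 8 in TKO mES cells (13). With a minimum count of 5 copies inside genes were 15765 in QKO EpiLCs (9793), 12210 in QKO mES cells (8027) and 8145 in WT EpiLCs against WT mES cells (4779), and copies outside genes were 1193 in QKO EpiLCs (638), 1527 in QKO mES cells (847) and 941 in WT EpiLCs against WT mES cells (552). Without the filter on low counts families on multimapped reads were 0 in QKO EpiLCs (1). Leaving out 1 replicate at a time moved counts past 1.5 times to 159 to 439 copies inside genes in LBRKO EpiLCs (300), 93 to 347 copies inside genes in LBRKO mES cells (239), 360 to 1043 copies inside genes in QKO against TKO mES cells (846), 26 to 42 copies outside genes in LBRKO EpiLCs (51), 4 to 27 copies outside genes in LBRKO mES cells (17), 0 to 1 families on multimapped reads in TKO EpiLCs (1), 1 to 2 families outside genes in TKO EpiLCs (2) and 0 to 2 families outside genes in TKO mES cells (1). Moving the limit from 5 kb to 50 kb reversed the log2 change of B1 families, which became -0.23 for B1F outside less inside in QKO against TKO mES cells, -0.55 for B1F outside less inside in QKO mES cells, -0.33 for B1F outside less inside in TKO mES cells, -0.14 for B1F outside genes in QKO mES cells, -0.23 for B1F outside genes in TKO mES cells, -0.039 for B1F2 outside less inside in TKO mES cells, 0.17 for B1F2 outside less inside in WT EpiLCs against WT mES cells, -0.00018 for B1F2 outside genes in TKO mES cells, -0.58 for B1_Mur4 outside less inside in TKO mES cells and -0.48 for B1_Mur4 outside genes in TKO mES cells.

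Samples shared replicate numbers across groups, and deviations of same-numbered samples correlated by -0.39 to 0.55, so the numbers were not taken to pair samples. With the replicate block copies inside genes were 1261 in LBRKO EpiLCs (300), 1546 in LBRKO mES cells (239), 1517 in QKO against TKO mES cells (846), 533 in TKO EpiLCs (1116) and 564 in TKO mES cells (920), and copies outside genes were 240 in LBRKO EpiLCs (51), 212 in LBRKO mES cells (17), 190 in TKO EpiLCs (449) and 129 in TKO mES cells (290). For families this setting changed counts so that families inside genes were 0 in QKO mES cells (1), families outside genes were 0 in TKO EpiLCs (2) and 0 in TKO mES cells (1), families on multimapped reads were 0 in QKO mES cells (2) and 0 in TKO EpiLCs (1), families whose change outside differed from that inside were 4 in LBRKO EpiLCs (1) and 7 in LBRKO mES cells (0), families with an interaction term on multimapped reads were 9 in QKO less LBRKO and TKO in EpiLCs (0) and 2 in QKO less LBRKO and TKO in mES cells (0) and families outside genes with an interaction term were 7 in QKO less LBRKO and TKO in mES cells (3), 3 in stage with QKO (0) and 3 in stage with TKO (0). For single families and counts by superfamily, 5394 values kept their side of the adjusted p threshold or moved less than the limits above. A further 186 lost the threshold, 206 passed it and 206 moved. The 5394 include changes of direction where neither value passed, as for B2 families outside genes in LBRKO against WT replicates 5 to 8. Interaction terms and pooled sums were not refitted for each replicate left out. B2 results against WT changed with the choice of WT replicates, whose sets differ in depth and whose origin the labels do not give. Reads that match several copies alike are absent from the unique counts, and QKO is 1 clone.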

Other observations

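Copies closer than 5 kb to a gene, which the comparison of inside with outside leaves aside, had levels between those of introns and of copies farther away in WT mES cells. B1 copies there had 98.1 ± 15.3 CPM per megabase in WT, 128 ± 7.49 in TKO and 184 ± 11.4 in QKO mES cells, and 105 ± 13, 126 ± 1.55 and 203 ± 5.02 in EpiLCs. B2 copies had 169 ± 32.8, 276 ± 20.3 and 387 ± 18.6 in mES cells and 231 ± 60.6, 424 ± 52.9 and 398 ± 42.9 in EpiLCs. Of 1368 tested B1 and 1501 tested B2 copies near genes, 506 and 775 rose in QKO mES cells (background 38.8%), and 85 and 379 in TKO EpiLCs (background 6.78%), by edgeR's quasi-likelihood test on the tested copies. B2 copies near genes had 734 ± 39.6 CPM in WT mES replicates 1 to 4 and 525 ± 64.1 in replicates 5 to 8, and 1057 ± 63.1 and 663 ± 104 in EpiLCs. Against replicates 1 to 4 alone 501 of 1367 B2 copies near genes rose in QKO mES cells (background 36.7%) and 88 of 1367 in TKO EpiLCs (2.9%). Against replicates 5 to 8 alone 857 of 1580 (33.8%) and 609 of 1580 (8.73%) did.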
